A study of Mus musculus with 4 samples.

Results

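The 39 genes described here mark the cells of blood and lymph vessels: endothelial cells, which line the vessel, and pericytes, which wrap it. Their 71 probe sets are all those of the array whose annotation gives exactly 1 of these symbols, out of 45037 probe sets in all. The arrays were Affymetrix Mouse Genome 430 2.0 arrays, which read 1 colour and report a probe set intensity for each transcript. Each of the 4 arrays was hybridised with pooled RNA of 3 mammary tumors, 1 from each of 3 female C57BL/6 mice aged 110 days, taken 14 days after tumor onset. All animals carried polyoma virus middle T (PyV-mT), an oncogene that drives mammary tumors, driven by a promoter that the labels do not name. In 2 pools the animals were St6gal1-/-, that is null for the enzyme that adds alpha2-6-linked sialic acid to N-glycans, and in the other two they were wild-type littermates. The design text forms 2 sets of 1 null and 1 wild-type pool each, so each null pool was read against its wild-type partner.

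Endothelial cells form and keep vessels through receptor pathways that work in parallel. VEGF ligands act on Kdr, Flt1 and Flt4 and drive sprouting. Angiopoietins act on the receptor Tek, with its relative Tie1 and the phosphatase Ptprb as modulators: Angpt1, made by pericytes and other mesenchymal cells, activates Tek and stabilises vessels, while Angpt2, made by the endothelium itself, can oppose it. Apelin (Apln) acts on the receptor Aplnr and takes part in vessel growth and calibre. Tumors depend on vessels that are often irregular and loosely covered by pericytes.

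Most of the tested members were higher in the null pools of both sets, and a pair of them fell. Of the 39 members, 33 had their brightest probe set at or above the median intensity of the array and were tested. With limma, 8 of the 33 rose at an adjusted p under 0.05, against 5.18% of all 11514 genes tested, and 2 fell, against 3.59%. The 8 were Rgs5, Aplnr, Esam, Vwf, Eng, Cd34, Ptprb and Aqp1, and they rose between 1.38-fold and 1.84-fold. Angpt1 and Vcam1 fell, by 1.19 and 1.11 on the log2 scale. The median log2 ratio of the 33 members was 0.43, or 1.35-fold, beside a median of -0.01 over all genes tested. In set 1 the median was 0.45 and in set 2 it was 0.35. The calls depended on 2 parts of the fit. Without the set term limma called 0 members, with 10 higher and 2 lower at an unadjusted p under 0.05. Without its intensity trend it called 0 as well, with 18 higher and 2 lower. The share of all genes at that unadjusted threshold was not counted in these 2 fits, so these counts have no baseline. In the main fit 4645 of 22519 probe sets had an unadjusted limma p under 0.05.

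Direction was read beside the tests. The null pool was above its wild-type partner in both sets for 24 of the 33 members (72.7%, against 31.8% of all genes), and below it in both sets for 3 (33.5% of all genes). Both null arrays read above both wild-type arrays for 21 members (17.7% of all genes) and below them for 2, Angpt1 and Vcam1 (17% of all genes). Of these 21 members 13 did not pass the test. In bulk RNA of this kind, a change in the number of vessel cells and a change in the RNA per vessel cell cannot be told apart. The filter reads the mean of all 4 arrays, and 3 members (Angpt2, Selp and Icam2) passed it through their higher group, the null pools, only. None of these 3 was called by limma. Among the other 30 members the median log2 ratio was 0.36, 21 were higher in both sets, and for 18 both null arrays read above both wild-type arrays.

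**Figure D1:**
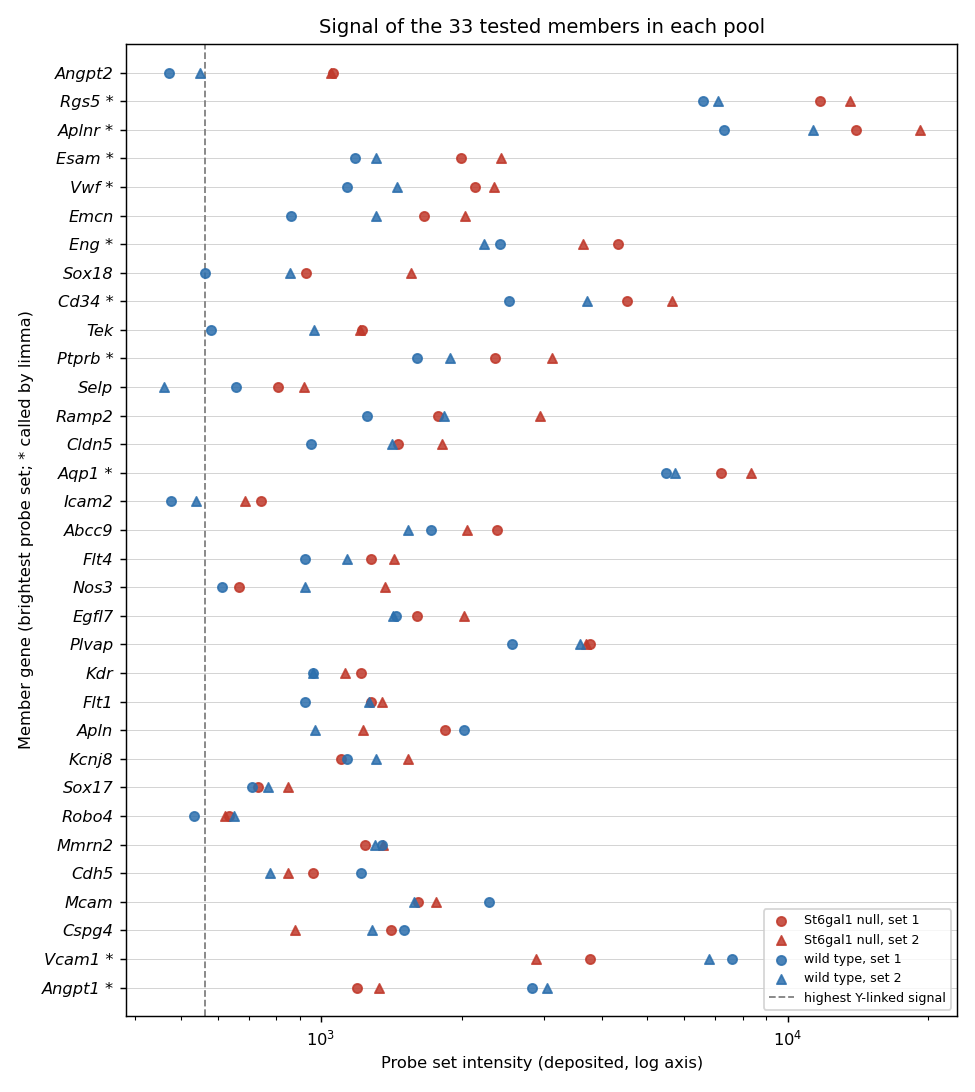
Deposited intensity (log axis) of the brightest probe set of each of the 33 tested members in the 4 pools, null in red and wild type in blue, set 1 as circles and set 2 as triangles, ordered by log2 ratio. For Rgs5 the null pools sit at 11706 and 13621 and the wild-type pools at 6588 and 7081, whereas for Vcam1 the null pools, at 3762 and 2892, lie left of the wild-type pools; the dashed line is the highest Y-linked signal, 565.

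**Figure D2:**
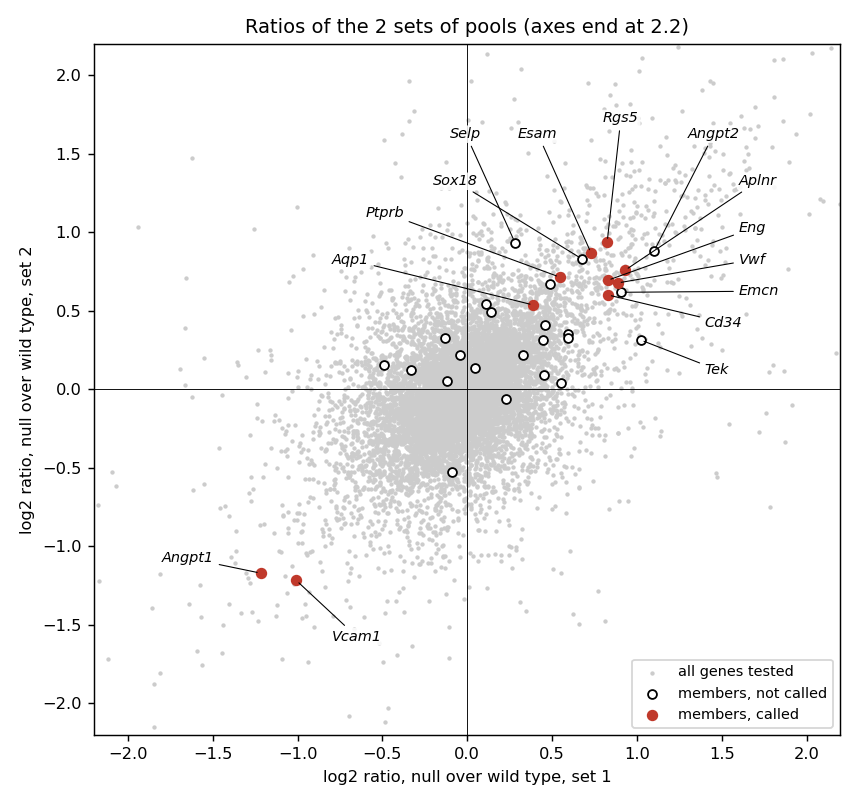
Log2 ratio of null over wild type in set 1 (x) and set 2 (y) for all 11514 genes tested (grey) and the 33 members (outlined, or red where limma called them). 24 members lie in the upper right quadrant, while Angpt1 (-1.22 and -1.17) and Vcam1 (-1.01 and -1.22) lie far out in the lower left one.

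Promoter sequences are shown for the called members that the promoter table held, all of which rose. The RefSeq promoter table (GRCm38.p6) held windows of 300 bases, from 250 before to 50 after a start site, for 22 of the 39 members. Of the 10 called members it held 4, Cd34, Eng, Aqp1 and Rgs5. Capitals mark the letters AGGAAG in either orientation (CTTCCT on the opposite strand). AGGAAG is a form of the site bound by ETS factors, the family of Erg and Fli1. Other forms of that site were not marked.

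Cd34 (chr1:194938571-194938870, plus strand): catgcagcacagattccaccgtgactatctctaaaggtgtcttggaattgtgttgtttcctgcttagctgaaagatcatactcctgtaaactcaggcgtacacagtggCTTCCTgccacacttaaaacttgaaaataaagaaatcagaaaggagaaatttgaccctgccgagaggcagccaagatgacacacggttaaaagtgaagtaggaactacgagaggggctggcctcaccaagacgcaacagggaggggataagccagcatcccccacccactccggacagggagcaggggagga
Eng (chr2:32646345-32646644, plus strand): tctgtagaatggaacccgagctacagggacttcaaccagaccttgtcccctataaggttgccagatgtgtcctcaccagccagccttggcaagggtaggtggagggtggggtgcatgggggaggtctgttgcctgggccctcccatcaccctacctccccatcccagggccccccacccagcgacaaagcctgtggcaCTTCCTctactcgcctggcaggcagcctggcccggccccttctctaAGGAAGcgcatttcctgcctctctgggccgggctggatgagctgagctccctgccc
Aqp1 (chr6:55336049-55336348, plus strand): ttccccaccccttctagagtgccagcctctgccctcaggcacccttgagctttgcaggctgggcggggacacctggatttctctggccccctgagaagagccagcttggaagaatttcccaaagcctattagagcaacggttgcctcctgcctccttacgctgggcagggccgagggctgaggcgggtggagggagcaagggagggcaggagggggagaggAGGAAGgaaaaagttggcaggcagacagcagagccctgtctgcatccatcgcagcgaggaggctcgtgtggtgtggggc
Rgs5 (chr1:169655251-169655550, plus strand): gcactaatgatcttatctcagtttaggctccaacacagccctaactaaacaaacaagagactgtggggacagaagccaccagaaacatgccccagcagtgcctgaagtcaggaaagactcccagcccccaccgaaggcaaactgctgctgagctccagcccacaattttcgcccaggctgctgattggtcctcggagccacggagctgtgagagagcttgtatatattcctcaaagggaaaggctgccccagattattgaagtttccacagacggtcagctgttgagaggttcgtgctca

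Cd34 and Aqp1 each had 1 match to AGGAAG, Eng had 2 and Rgs5 had 0. Over the members, 13 of 27 windows held it (48.1%), beside 35.4% of all 32851 windows of the table. The SOX motif AACAAT (on the opposite strand ATTGTT) was in 3 of the 27 windows, those of Tek, Emcn and Erg, beside 10.7% of all windows. The forkhead motif GTAAACA (on the opposite strand TGTTTAC) was in 0 of 27, beside 3.65% of all windows. None of these motifs holds another. A match is a description of these letters in this window.

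Angiopoietin signalling showed the widest spread among the members. Angpt1 read 1195 (null) against 2836 (wild type) in set 1, and 1331 against 3051 in set 2, and values below are given in this order. Both null pools were low and both wild-type pools high, with no overlap, and the sets were alike. Angpt1 fell by 1.19 on the log2 scale (SE 0.18, n = 2 pools per genotype, limma adjusted p = 7.38e-04), which is 0.437 of the wild-type level. Its other probe set read 61.5 against 572 in set 1 and 140 against 248 in set 2, on 3 of 4 arrays within the unspecific level. That level was taken as 565, the highest signal of 13 probe sets for Y-linked genes, since the animals were female. Angpt2 went the opposite way, at 1062 against 472 in set 1 and 1051 against 551 in set 2. Its null pools were alike and lay above both wild-type pools, which read within the unspecific level. For Angpt2 the null pools averaged 1.81-fold that level on the log2 scale. Its log2 ratio was 0.99 ± 0.32 (SE), and it did not pass (limma adjusted p = 0.0817).

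Tek, the receptor of both ligands, read 1227 against 582 in set 1 and 1214 against 967 in set 2. The null pools were close to each other and the wild-type pools were not, and the log2 ratio of 0.67 ± 0.29 did not pass (limma adjusted p = 0.199). Ptprb, the endothelial phosphatase that acts on Tek and on VE-cadherin, rose on both of its tested probe sets. The brighter read 2363 against 1604 in set 1 and 3129 against 1889 in set 2 (1.55-fold, log2 0.63 ± 0.17, limma adjusted p = 0.0369), and the other rose 1.79-fold. Tie1, the Tek relative, lay below the filter. It read 729 and 659 in the null pools and 396 and 386 in the wild-type pools, the latter within the unspecific level. The null pools averaged 1.21-fold that level on the log2 scale. In the fit without the filter, Tie1 had a log2 ratio of 0.76 ± 0.46 and did not pass (limma adjusted p = 0.534).

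Apelin signalling was split between receptor and ligand. Aplnr, a G protein-coupled receptor of sprouting endothelium, was the brightest member, at 13971 against 7306 in set 1 and 19171 against 11307 in set 2. It rose 1.80-fold (log2 0.85 ± 0.09, limma adjusted p = 3.81e-05). Its second probe set had a log2 ratio of 0.78 ± 0.24 and did not pass (limma adjusted p = 0.0724). Both null pools lay above both wild-type pools on both probe sets. Apln, its ligand, read 1841 against 2021 in set 1 and 1228 against 970 in set 2, so the sets went opposite ways (log2 0.10 ± 0.22).

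The VEGF receptors were higher in both sets without passing. Flt4, the VEGF-C receptor of lymphatic and growing blood endothelium, read 1277 against 924 and 1430 against 1139 (log2 0.38 ± 0.24). Kdr, the main signalling receptor, read 1218 against 960 and 1124 against 960 (0.27 ± 0.26). Flt1, a high-affinity receptor that limits VEGF signalling, read 1278 against 922 and 1353 against 1269 (0.27 ± 0.24). For all 3 receptors both null arrays lay above both wild-type arrays. A second tested probe set of Flt1 had log2 ratios of 1.20 in set 1 and -0.24 in set 2.

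Among proteins of the endothelial surface and junctions, 2 of 8 tested members rose, beside 5.18% of all genes tested. Cd34, a sialomucin of endothelium that some fibroblasts and progenitors also carry, read 4519 against 2524 in set 1 and 5655 against 3711 in set 2. It rose 1.64-fold (log2 0.72 ± 0.13, limma adjusted p = 0.00292), with no overlap. Esam, an immunoglobulin-family adhesion molecule of endothelial tight junctions, read 1993 against 1184 and 2425 against 1308. It rose 1.74-fold (log2 0.80 ± 0.20, limma adjusted p = 0.0232). Emcn, the sialomucin endomucin, had nearly the same size of difference, at 1660 against 864 and 2038 against 1312, and just missed the threshold (log2 0.76 ± 0.22, limma adjusted p = 0.0504). It passed under 6 of 9 alternative settings. Cldn5, the claudin of endothelial tight junctions, read 1460 against 950 and 1819 against 1416 (log2 0.47 ± 0.22), and Plvap, of the diaphragms of fenestrae, had a log2 ratio of 0.30 ± 0.15.

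Not every junction gene followed. Cdh5, VE-cadherin, which holds endothelial cells together, read 961 against 1220 in set 1 and 849 against 777 in set 2, with overlapping groups (log2 -0.10 ± 0.28). Mcam, the adhesion molecule CD146 of endothelium and pericytes, read 1616 against 2287 and 1762 against 1581 (log2 -0.17 ± 0.21). Icam2, an adhesion molecule of resting endothelium, read 743 against 478 and 689 against 541. Both wild-type pools were within the unspecific level, and the null pools averaged only 1.25-fold that level on the log2 scale. The log2 ratio of Icam2, 0.46 ± 0.36, did not pass (limma adjusted p = 0.531). Pecam1, or CD31, lay below the filter, at 1023 against 479 and 372 against 98.3: it was higher in the null pool of each set, and only 1 of its 4 arrays read above the unspecific level.

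Adhesion and clotting members went both ways. Vcam1, an adhesion receptor for leukocyte integrins that activated endothelium and also stromal cells carry, fell on its 2 brighter probe sets. The brightest read 3762 against 7608 in set 1 and 2892 against 6779 in set 2, with the null pools well below the wild-type pools. It fell by 1.11 on the log2 scale (SE 0.12, limma adjusted p = 2.93e-05), the next probe set fell by 0.93, and the third had a log2 ratio of -0.97 ± 0.31 (limma adjusted p = 0.0757). Vwf, the clotting protein stored by endothelium, read 2139 against 1137 and 2351 against 1453, and rose 1.72-fold (log2 0.78 ± 0.20, limma adjusted p = 0.0249). Selp, P-selectin, stored in the same granules, read 810 against 658 and 918 against 461 (log2 0.61 ± 0.34). Sele, E-selectin, was within the unspecific level on all 4 arrays.

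Of the 7 members that signal in or are secreted by endothelium, 2 rose, beside 5.18% of all genes tested. Eng, endoglin, a co-receptor for BMP and TGF-beta ligands, read 4318 against 2415 in set 1 and 3649 against 2238 in set 2. It rose 1.69-fold (log2 0.76 ± 0.14, limma adjusted p = 0.00391), and 2.16-fold on its second probe set. Aqp1, a water channel of endothelium and red cells, read 7210 against 5490 and 8342 against 5734, and rose 1.38-fold (log2 0.46 ± 0.10, limma adjusted p = 0.0138). The null pools lay above the wild-type pools on these probe sets of both genes. Ramp2, which makes the calcitonin-like receptor respond to adrenomedullin, read 1777 against 1254 and 2944 against 1830 (log2 0.58 ± 0.18, limma adjusted p = 0.0771). Nos3, the endothelial nitric oxide synthase, and Robo4, a guidance receptor, had log2 ratios of 0.33 ± 0.30 and 0.08 ± 0.36.

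A pair of these secreted or matrix-bound members gave no single answer. The brightest probe set of Egfl7, a secreted endothelial protein, read 1604 against 1448 and 2028 against 1426, while a dimmer one read 1455 against 1191 in set 1 but 445 against 1503 in set 2. For Mmrn2, an endothelial matrix protein that binds Cd93, the brightest probe set read 1239 against 1350 and 1355 against 1304 (log2 -0.03 ± 0.23), while its 3 other tested probe sets had log2 ratios of 0.49, 0.64 and 0.69. None of these passed.

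Endothelial transcription factors were dim. Sox18, a SOXF factor of blood and lymphatic endothelium, read 928 against 564 and 1556 against 856 (log2 0.75 ± 0.28, limma adjusted p = 0.133), with 1 wild-type pool within the unspecific level. Sox17, an arterial SOXF factor, read 734 against 710 and 850 against 770 (0.09 ± 0.31). Sox7, the remaining SOXF gene, lay below the filter at 624 against 389 and 615 against 341. All 3 probe sets of Prox1, the factor of lymphatic identity, were within the unspecific level on all arrays, and Erg was above it on 1 of 4. No level of Prox1 could be told from unspecific signal.

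The pericyte markers did not move as 1 group. Rgs5, a regulator of G protein signalling that marks pericytes, was bright, at 11706 against 6588 in set 1 and 13621 against 7081 in set 2. Null pools were high and wild-type pools low in both sets. It rose 1.84-fold (log2 0.88 ± 0.09, limma adjusted p = 3.51e-05), and its 3 other probe sets, at log2 ratios of 0.40 to 0.58, were higher in both sets without passing. Abcc9 and Kcnj8 encode the partner subunits of a potassium channel of pericytes. The brightest Abcc9 probe set read 2379 against 1716 and 2056 against 1539 (log2 0.43 ± 0.18), and another had a log2 ratio of -0.34 ± 0.33. Kcnj8 read 1101 against 1134 and 1538 against 1312 (0.09 ± 0.23). Cspg4, the proteoglycan NG2, read 1412 against 1504 and 879 against 1284, lower in both null pools with overlapping groups (log2 -0.31 ± 0.24).

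**Figure D3:**
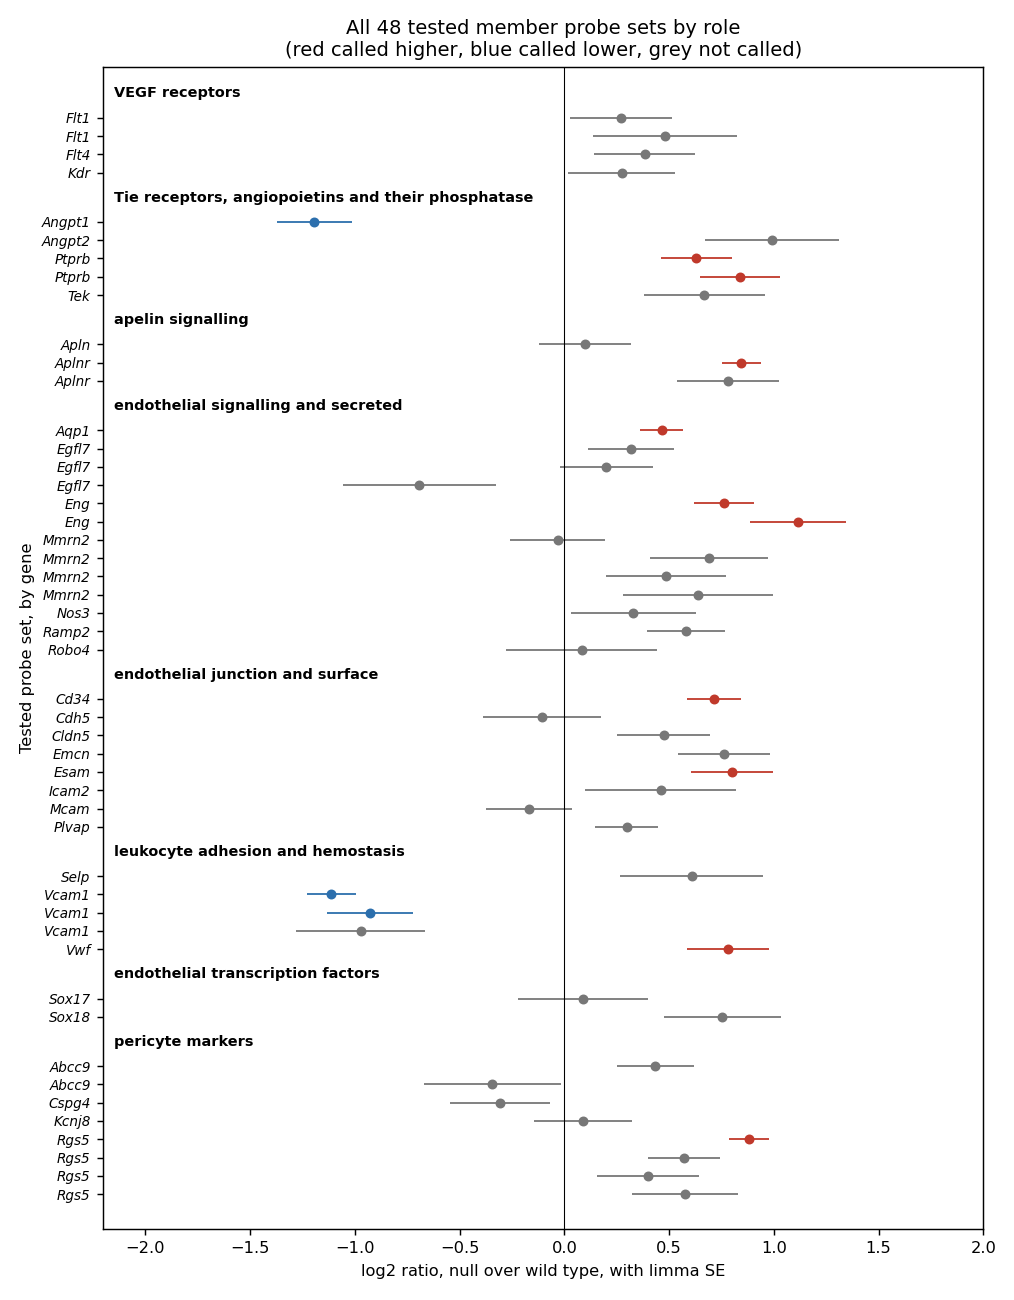
Log2 ratio of null over wild type with limma's standard error for all 48 tested probe sets of the members, grouped by role (red called higher, blue called lower, grey not called). The 4 Rgs5 probe sets all lie right of 0 and the 3 Vcam1 probe sets all left of it, whereas the probe sets of Egfl7, Abcc9 and Mmrn2 fall on both sides.

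Other genes of the vessel pathways, from lists that leave out the 39 members, were read in the same fit. Of 78 such genes tested, 11 rose and 8 fell, that is 14.1% and 10.3% beside 5.18% and 3.59% of all genes tested. Their median log2 ratio was 0.09. The null pool was higher in both sets for 34 of the 78 (43.6%, against 31.8% of all genes). It was lower in both sets for 26 (33.3%, against 33.5% of all genes). The list of VEGF and angiopoietin-like ligands and co-receptors also held Hif1a and Epas1, transcription factors of the hypoxia response, and 4 of its 10 tested genes rose. Vegfc, ligand of Flt4, read 2090 against 1104 and 1796 against 794 and rose 2.02-fold (limma adjusted p = 0.0119). Nrp1, a VEGF co-receptor, rose 1.57-fold, and Angptl4 and Pgf rose 1.61-fold and 1.41-fold. Vegfa, the main VEGF, had a log2 ratio of -0.57 ± 0.22 and did not pass.

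In the list of Notch, ephrin, BMP and sphingosine 1-phosphate signalling 1 of 20 genes rose, which is near the share of all genes, and 3 fell. S1pr3, a sphingosine 1-phosphate receptor of vessel walls and fibroblasts, rose 2.34-fold, while Efnb2, a ligand of arterial endothelium that epithelium also makes, fell by 0.72 on the log2 scale. Notch1 and Hey1 fell by 0.31 and 0.35. Both were far brighter than Cdh5 or Kdr, and which cells of the tumor made them was not tested. Of 33 other endothelial genes 5 rose and 1 fell, beside 5.18% and 3.59% of all genes tested, with a median of 0.23. The fatty acid transporter Cd36 rose 2.83-fold, the fatty acid binding protein Fabp4 2.19-fold, thrombomodulin (Thbd) 2.16-fold and Cd93 1.65-fold, and the fifth was Ctla2a. Fabp4 and Cd36 are also made by fat cells. Foxo1, which fell by 0.41, is made by many cell types.

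The wider pericyte and vessel smooth muscle list did not move one way. Of 13 genes 1 rose and 3 fell, beside 5.18% and 3.59% of all genes tested, with a median of -0.04. Pdgfrb, the receptor by which pericytes are recruited and which fibroblasts also carry, rose 2.12-fold, from 3243 to 6454 in set 1 and from 2747 to 6327 in set 2. Myh11, smooth muscle myosin, Foxc1 and Notch3 fell by 0.78, 0.37 and 0.33 on the log2 scale. Bulk RNA does not show which cells of the tumor these 3 signals came from, and this was not tested. Of 3 lymphatic genes tested, Reln fell by 0.56, and Lyve1 read 1838 against 1204 and 1976 against 1079 (log2 0.72 ± 0.21, limma adjusted p = 0.0565).

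Markers of other cells of the tumor moved beside the members. Over all genes tested 5.18% rose and 3.59% fell, the baseline for the marker counts here and in the next paragraph. All 12 fibroblast markers rose, with a median log2 ratio of 1.19, and their summed intensity was 438316 and 506815 in the null pools against 218461 and 237661 in the wild-type pools. Of 6 adipocyte markers tested 4 rose (median 1.27), with summed intensities over 7 markers of 63040 and 55228 against 26366 and 23178. Fabp4, which rose, is in this list and in that of other endothelial genes. It made up 36602 and 27813 of the null sums and 15850 and 13390 of the wild-type sums. Of 8 skeletal muscle markers 3 rose (median 0.90), with summed intensities over 9 markers of 14061 and 11904 against 8592 and 8130. No fibroblast or muscle marker was within the unspecific level on all 4 arrays, and Lep was the only such adipocyte marker. Of 6 basal epithelial markers 4 fell (median -0.55), from summed intensities of 55720 and 57482 in the wild-type pools to 35920 and 36346 in the null pools. The part of these cells in the vessel gene values was not tested.

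Other lists gave less. Among macrophage and dendritic markers, 3 of 10 rose and 1 fell (median 0.12), with summed intensities of 193413 and 225018 in the null against 188542 and 225218 in the wild-type pools, and Itgam was within the unspecific level. The label of a mammary tumor was checked on 8 luminal markers, whose summed intensity was 399640 to 462787 over the 4 pools, with Csn2 within the unspecific level and a median log2 ratio of -0.08 over the 7 tested, of which 1 rose (Krt19) and 1 fell (Wap). Of 5 mast cell and neutrophil markers tested 2 rose (Cpa3 and Cma1), while S100a8 fell by 1.86 on the log2 scale. Their median, -0.19, thus joins opposite changes. Summed intensities over 9 such markers were 39024 and 52899 in the null against 68483 and 79454 in the wild-type pools, with 4 of the 9 within the unspecific level on all arrays. The 2 T, NK and B cell markers tested had log2 ratios of 0.64 and 1.01 without passing. Red cell markers were dim, with 2 of 3 on the array, Hba-a1 and Slc4a1, within that level.

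Of the 39 members, 10 are known from other tumor cells as well, among them Cd34, Eng, Aqp1, Vcam1 and Angpt1. Without them 23 members were tested, of which 5 rose and 0 fell, beside 5.18% and 3.59% of all genes tested. At an unadjusted p under 0.05 with limma, 11 were higher and 0 lower, and the median log2 ratio was 0.47. Over all 22519 probe sets tested, 4645 had such a p in either direction. The 23 include Angpt2, which is among the 11, and Selp, and both passed the filter through the null pools only. The 10 left out held both members that fell, and their median was 0.26. These 10 were picked with earlier results of these data known, so the absence of a fall follows from the choice.

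**Figure D4:**
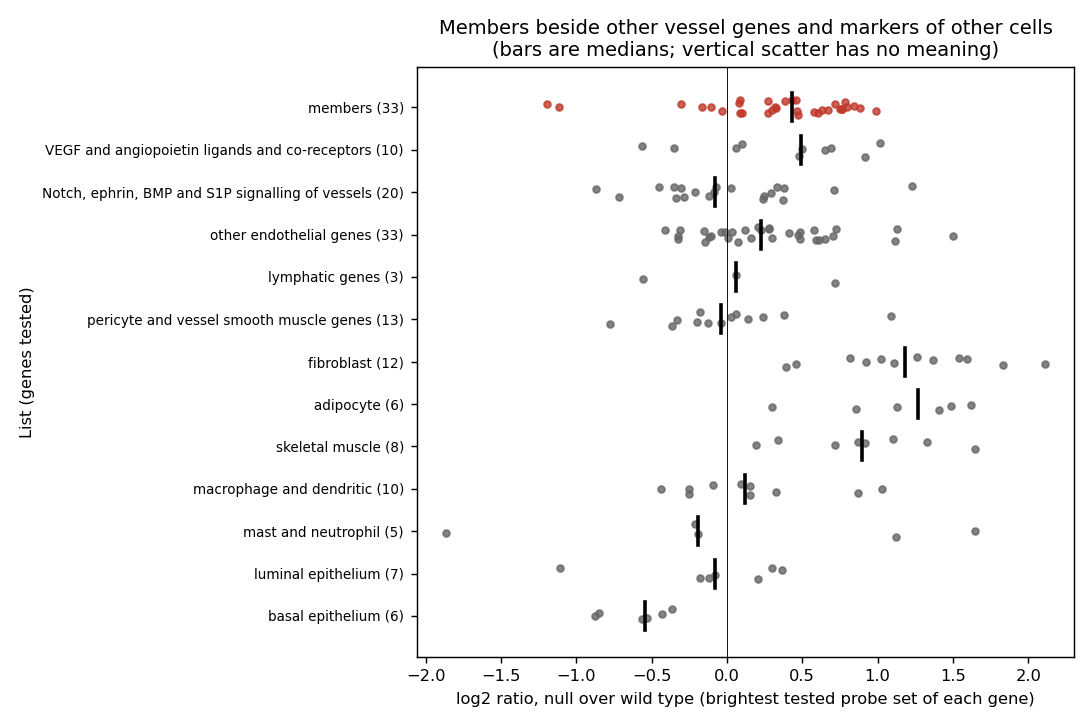
Log2 ratio of null over wild type for each tested gene of the member list, 5 lists of other vessel genes and 7 lists of markers of other cells (points; bars are medians, and number of genes tested in brackets). The members' median, 0.43, lies between those of the pericyte and smooth muscle list (-0.04) and of the fibroblast list (1.19).

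The sets of pools differed in some members too. In the same fit Aplnr, Cd34 and Ramp2 were higher in set 2, by log2 differences of 0.54, 0.43 and 0.62, that is 3 of 33 members against 14.6% of all genes. Apln was lower in set 2, at -0.80 (8.55% of all genes). The difference of the genotype effect between sets was not tested, since 4 arrays leave no residual for it. On the arrays as a whole, median intensities were 588 to 619, and the Gapdh 3' to 5' ratio, a sign of RNA degradation when high, was 0.873 (null) and 0.869 (wild type) in set 1 but 2.13 and 1.57 in set 2. Its part in the set 2 values was not tested. The brighter probe set of the targeted gene, St6gal1, read 2337 against 2330 and 3642 against 2796, with no loss in the null pools. The labels do not say which part of the gene is deleted, and a probe set elsewhere in it would check nothing. The directions rest on the labels.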

How the data were processed

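Each of 4 arrays held 1 pool of 3 tumors, 2 pools per genotype. Per the submitters' processing notes the deposited intensities are linear probe set signals made with MAS5 (version not given in the sources used here). After trimming 2% at each end every array averaged 2500.01, and no further scaling was done. Intensities became log2(value + 44), where 44 is their 10th percentile, and a fold on this scale understates changes of dim genes. Control probe sets (64) were left out. Probe sets averaging at least 591, the median, entered limma 3.58.1 in R 4.3.3 (lmFit, then eBayes with trend), which modelled set and genotype. Benjamini-Hochberg adjustment ran over all 22519 of them. A gene stands by its brightest tested probe set. The sets come from the design text, and pools of a set deviated from their group means together (r = 0.605). The fit has 1 residual and 13.0 prior degrees of freedom and was tested on simulated data. With 2 arrays a side, the smallest two-sided p of an exact permutation test is 0.333, so none was used. The number of arrays limits the precision. Whether littermate pools share litters within a set is not given. The members and lists were chosen with earlier results of these data known. Values in every array were given for called members, for the 8 others with the largest change in 1 direction, and for members whose probe sets disagree; members shown beyond this were added after their values were seen. Ctla2a and Foxo1 were named for the same reason. Alternatives covered normalization, filter, pseudocount, trend, block, probe set choice and single arrays.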

Additional observations from a re-analysis of the deposited data

How the results depend on the processing

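Without the replicate block (the pairing by set) limma called 0 members, 0 of the other vessel genes and 0 probe sets in all, against 10, 19 and 1645 with it, and without the intensity trend it called 0 of each and 0 probe sets for the set, against 5320. With 1 residual degree of freedom, the calls rest on how limma borrows the spread. Under the other normalizations, filters, pseudocounts and the mean of all probe sets, 8 to 10 members were called higher and 2 lower, the 10 called in the report among them each time. Emcn joined in 6 of these settings and Ramp2 in 1. The mean of all probe sets lowered the calls for the set to 3194 and those for genotype to 1371. It also turned the log2 ratio of Mmrn2 to 0.44 and that of Egfl7 to -0.058, and cyclic loess turned that of Mmrn2 to 0.0022. Without the members that other cells also make, which held both that fell, 5 rose and 0 fell, 5 calls in all. Leaving out 1 array leaves the other set alone, with no test. The members' median was then 0.35 to 0.45, beside medians over all genes of -0.011 in set 1 and -0.0018 in set 2. Of the 33 members 25 to 29 were higher in the remaining set, and that share of all genes was not counted. The 33 include Angpt2, Selp and Icam2, which passed the filter through the null pools only. Signals at or below 565 cannot be told from unspecific signal.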
